A study of Mus musculus with 12 samples.

Results

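Polycomb repressive complex 2 (PRC2) is the enzyme complex that places methyl groups on lysine 27 of histone H3, a mark of silenced developmental genes. The 10 genes described here encode its core and accessory subunits, were chosen by symbol as known subunits of the complex, and were 10 of 55536 genes measured. They are the alternative catalytic subunits Ezh2 and Ezh1, the core partners Eed and Suz12, the accessory subunits Jarid2 and Aebp2 of the PRC2.2 form, the Polycomb-like subunits Mtf2, Phf1 and Phf19 of the PRC2.1 form, and the histone chaperone Rbbp4. All 10 passed the filter on low counts. In background terms, EED reads existing H3K27 trimethylation and stimulates the enzyme, SUZ12 is the scaffold on which the accessory subunits compete for place, and the 2 accessory classes steer PRC2 to chromatin in different ways. In oligodendrocyte precursor cells (OPCs), the glial progenitors that form myelinating oligodendrocytes, PRC2 is known for keeping genes of other lineages silent.

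Total RNA was sequenced from primary OPC cultures made from the brains of 4 to 6 day old mouse pups. The 4 groups, each of 3 libraries, were untreated cells (Ctr), cells given the EZH2 inhibitor EPZ011989 at 1.5 µM for 4 days with renewal every 48 h (EZH2i), cells given interferon gamma (IFN-γ) at 100 ng/ml for 6 h (IFNg), and cells given the inhibitor for 4 days and then IFN-γ for 6 h together with fresh inhibitor (IFNg_EZH2i). The comparisons ask whether blocking the enzyme's activity, or an inflammatory stimulus, moved the transcripts of the complex itself. All groups shared the proliferation medium with PDGFaa and bFGF, and each culture pooled several brains, with different litters behind the 3 libraries of a group. The labels describe the cells as Sox10GFP+ OPCs, whereas the protocols allow either sorting for GFP, which the Sox10:Cre reporter mouse keeps on in the whole oligodendrocyte lineage, or magnetic selection for CD140a (the product of Pdgfra). They also carry the tag EAE (the mouse model of multiple sclerosis), although the protocols for these pup cultures describe no induction of that disease.

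The libraries held between 17403896 and 66546017 estimated counts (median 33625880), with Ctr replicate 2 the shallowest. Both treatments left their mark. Irf1, an interferon-induced transcription factor gene, stood at 11.98 ± 0.410 CPM (counts normalised to library size; mean ± SD, n = 3) in Ctr and 951 ± 116 in IFNg, and Hoxd8, a silenced developmental gene chosen as a check after earlier results were known, stood at 0.0476 ± 0.0109 in Ctr and 7.60 ± 3.86 in EZH2i. The 7 OPC markers summed to 771 to 1513 TPM (abundance relative to all transcripts, corrected for length) in all 12 libraries. Mbp, a myelin gene of mature oligodendrocytes, stood at 375 ± 97.4 TPM in Ctr, 211 ± 50.3 in EZH2i, 366 ± 54.2 in IFNg and 188 ± 106 in IFNg_EZH2i (SD, n = 3). The 5 astrocyte markers, led by Slc1a3, summed to 134.5 to 453 TPM over the 12 libraries. The 6 neuron markers summed to 6.48 to 8.11 TPM in Ctr, 15.6 to 25.5 in EZH2i, 6.68 to 13.3 in IFNg and 11.4 to 24.5 in IFNg_EZH2i. Endothelial markers summed to at most 6.12 TPM, and those of pericytes and fibroblasts to at most 1.01. The 6 microglia and macrophage markers summed to at most 2.17 TPM, with Aif1, Cx3cr1, Ptprc and Tmem119 at or near 0. In cultures measured in bulk, fewer cells of a type and less RNA per cell cannot be told apart.

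Compared per length, in TPM summed over all annotated transcripts, the members fell into the same broad order in every group. Rbbp4, which also serves chromatin complexes other than PRC2, had the highest group mean throughout, from 32.1 ± 17.1 TPM in Ctr to 41.8 ± 15.6 in IFNg (SD, n = 3). Eed and Ezh2 followed at 22.5 ± 3.16 and 23.8 ± 5.60 TPM in Ctr, a pair whose order changed between groups and whose spreads overlapped in Ctr. In IFNg_EZH2i they stood apart, with Ezh2 at 14.8 to 21.1 TPM and Eed at 23.7 to 31.6, summed over all annotated transcripts. The retained-intron transcript Eed-203, of 491 bases, added 8.93 ± 2.97 TPM to Eed in Ctr and 10.6 ± 7.57 in IFNg_EZH2i. The main protein-coding transcripts, Eed-201 and Ezh2-202, stood at 7.18 ± 1.76 and 9.38 ± 2.56 TPM in Ctr. In IFNg_EZH2i these transcripts were at 8.60 ± 1.58 and 7.78 ± 1.61 TPM, with overlapping spreads. Mtf2 at 13.0 ± 3.99 and Aebp2 at 12.1 ± 1.71 TPM formed the next pair in Ctr, and Jarid2 at 9.60 ± 1.65 and Suz12 at 9.25 ± 4.65 TPM the one below it, again with overlapping spreads. The place of Mtf2 rests on transcripts that are not protein-coding. Its main protein-coding transcript, Mtf2-201, stood at 3.01 ± 0.426 TPM in Ctr. Beside it, Aebp2-202 stood at 3.49 ± 0.616, Aebp2-205 at 4.69 ± 0.484 and Suz12-201 at 7.04 ± 2.73 TPM.

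The low end was held by Phf19 at 6.73 ± 2.95 TPM, Ezh1 at 2.32 ± 0.162 and Phf1 at 2.16 ± 1.01 in Ctr. These ranks were 8, 9 and 10 by group mean in all 4 groups, and Ezh1 and Phf1 did not differ beyond their spread. Over the 12 libraries Ezh1 stayed between ranks 8 and 10 and Phf1 between 9 and 10. Aebp2 moved most, between ranks 1 and 6.

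**Figure D1:**
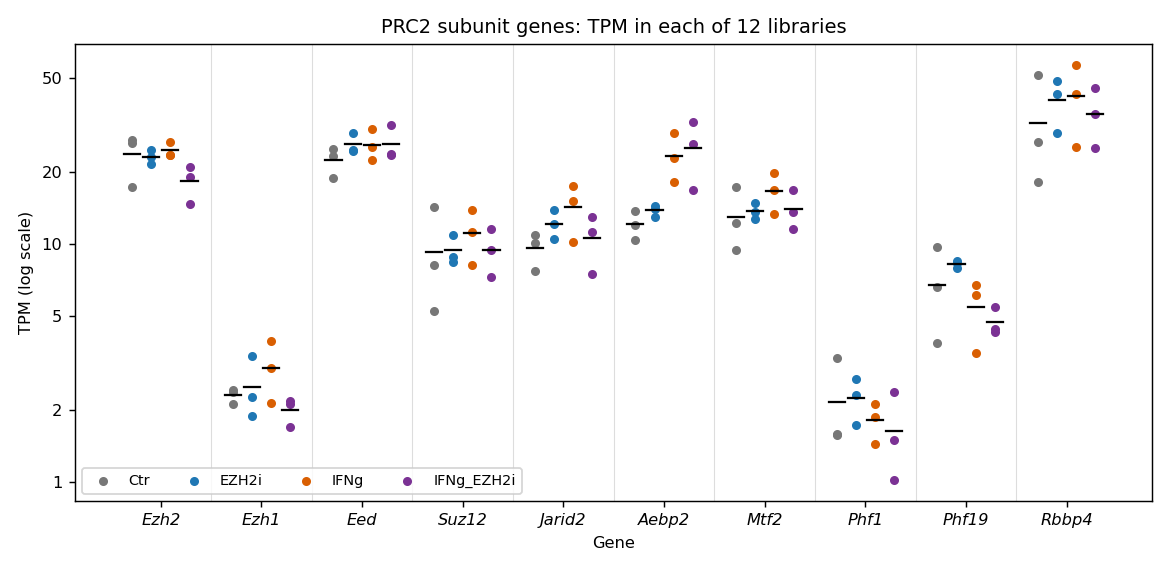
Level of each PRC2 subunit gene in TPM (vertical log axis) by gene, with 1 point per library, colour for the group and a black bar for the mean of 3 libraries. Rbbp4, Eed and Ezh2 sit at the top, Ezh1 and Phf1 at the bottom between 1.02 and 3.92 TPM, and the IFNg and IFNg_EZH2i points of Aebp2 lie above its Ctr and EZH2i points.

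The enzyme in these proliferating cultures was mostly of the Ezh2 kind at the RNA level. EZH2 is the more active methyltransferase and is typical of dividing cells, while EZH1 is weaker and typical of resting cells. In Ctr the ratio of Ezh2 to Ezh1 in TPM was 7.24, 11.3 and 12.5 in replicates 1 to 3, and over all 12 libraries it ran from 6.05 to 12.5. Ezh1 was therefore 7.42% to 14.2% of the summed TPM of both genes. The group means of this share were 9.23% ± 2.54 in Ctr, 9.70% ± 2.63 in EZH2i, 10.9% ± 3.01 in IFNg and 9.90% ± 0.668 in IFNg_EZH2i (SD, n = 3), which lie within each other's spread.

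No member passed the test in either comparison of inhibited with uninhibited cells. In EZH2i against Ctr, edgeR's quasi-likelihood test called 0 of the 10 members at an adjusted p (Benjamini-Hochberg) under 0.05, beside 0.405% of the 18995 genes tested, and 0 members had an unadjusted p under 0.05 (7.04% of genes did). In IFNg_EZH2i against IFNg it called 0 members, beside 0.353% of genes, and again 0 at an unadjusted p under 0.05 (6.42% of genes). DESeq2 also called 0 members in both. No member's libraries separated without overlap in either comparison, which 12.7% and 10.3% of all genes did. Averaged over both IFN-γ states, which sets 6 libraries with the inhibitor against 6 without, 0 members were called beside 2.22% of genes, and 1 member, Ezh2, had an unadjusted p under 0.05, as 12.3% of genes did. These tests did not use the replicate number. With it as a block, 0 members were called in the separate comparisons (4.06% and 3.94% of genes). The averaged comparison then called 1, Ezh2 (12.2% of genes).

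Ezh2, the target of the inhibitor, lay lower by its fitted value in inhibited cells, but short of the threshold. Its normalised levels were 43.4, 51.9 and 52.8 CPM in Ctr and 30.8, 44.4 and 43.7 CPM in EZH2i. With IFN-γ they were 41.0, 49.2 and 49.5 CPM in IFNg and 35.1, 44.2 and 35.0 CPM in IFNg_EZH2i. The highest inhibited library of each comparison reached above the lowest uninhibited one, so the groups overlapped. In each of the 3 same-numbered pairs of both comparisons Ezh2 was lower with the inhibitor, as were Ezh1 and Mtf2. The share of all genes with such pairs was not counted. Averaged over IFN-γ, the log2 fold change of Ezh2 was -0.30 (SE 0.12, 95% interval -0.56 to -0.05; edgeR, unadjusted p = 0.0234, Benjamini-Hochberg adjusted p = 0.284, adjusted p 0.0131 to 0.458 under the alternatives tried). The value was -0.32 without IFN-γ and -0.29 with it. A fit with a replicate block called the averaged value, at -0.31 (edgeR adjusted p = 0.0131, in a fit that called 12.2% of genes). The libraries of IFNg and IFNg_EZH2i were taken as paired by number. Those of Ctr and EZH2i were not, since their correlation in replicate 2 (Pearson's r = 0.0929) fell just short of the cut of 0.1. That value lies close to the 0.105 of Ctr with IFNg, which were taken as paired. The main test had group as its only term, so its values use no pairs in any comparison.

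The inhibitor acts on the EZH2 protein, so a level of Ezh2 RNA does not measure its action. Without IFN-γ, CPM and TPM gave different pictures of this gene, with 23.8 ± 5.60 TPM in Ctr and 23.3 ± 1.57 in EZH2i (SD, n = 3), where Ctr replicate 1 was at 17.4 TPM and the other Ctr libraries at 27.5 and 26.7. With IFN-γ its TPM, like its CPM, lay lower in inhibited cells, at 24.8 ± 1.87 in IFNg and 18.3 ± 3.22 in IFNg_EZH2i. Ezh2 has 15 annotated transcripts, and the protein-coding Ezh2-202 held 54.4% of its counts in Ctr and 54.8% in EZH2i. Protein-coding transcripts together held 72.5% to 84.9% of Ezh2 counts over the 12 libraries. Of the mature oligodendrocyte markers, Mbp was called lower with the inhibitor averaged over IFN-γ, and 3 of the 6 neuron markers were called higher. Of 20 replication and mitosis genes, 16 had a fitted value below 0 in that comparison and 0 were called. Their median log2 fold change was -0.12, beside -7e-04 over all genes. The part of these markers and genes in the Ezh2 value was not tested.

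The other catalytic and core genes gave narrow to moderate intervals around no change with the inhibitor. Ezh1 had a log2 fold change of -0.24 (95% interval -0.63 to 0.15), averaged over IFN-γ, and so no rise of the alternative enzyme above 0.15 on the log2 scale lay within that interval. Eed had the tightest estimate of all members at -0.02 (interval -0.19 to 0.15), and Suz12 stood at -0.10 (interval -0.40 to 0.20). These intervals bound the size of a change and do not show that there was none.

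The accessory genes and Rbbp4 were no different in this respect. Jarid2, whose protein is itself methylated by PRC2 and helps to activate it, stood at -0.09 (interval -0.41 to 0.22) and Aebp2 at 0.02 (-0.29 to 0.32). The Polycomb-like genes, whose proteins bind DNA rich in CpG and H3K36 methylation, stood at -0.07 for Mtf2 (-0.28 to 0.13), -0.12 for Phf19 (-0.49 to 0.25) and -0.13 for Phf1 (-0.65 to 0.40), the last with the fewest counts, 153 to 351 per library. Rbbp4 was at -0.02 (-0.37 to 0.34). Of the 10 fitted values 9 were below 0, with a median of -0.10 beside -7e-04 over all 18995 genes. The lists of other chromatin genes described below leaned the same way. Among them, 12 of 13 listed partners of RBBP4 (median -0.13) and 4 of 5 other PRC2-associated genes (median -0.16) were below 0.

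**Figure D2:**
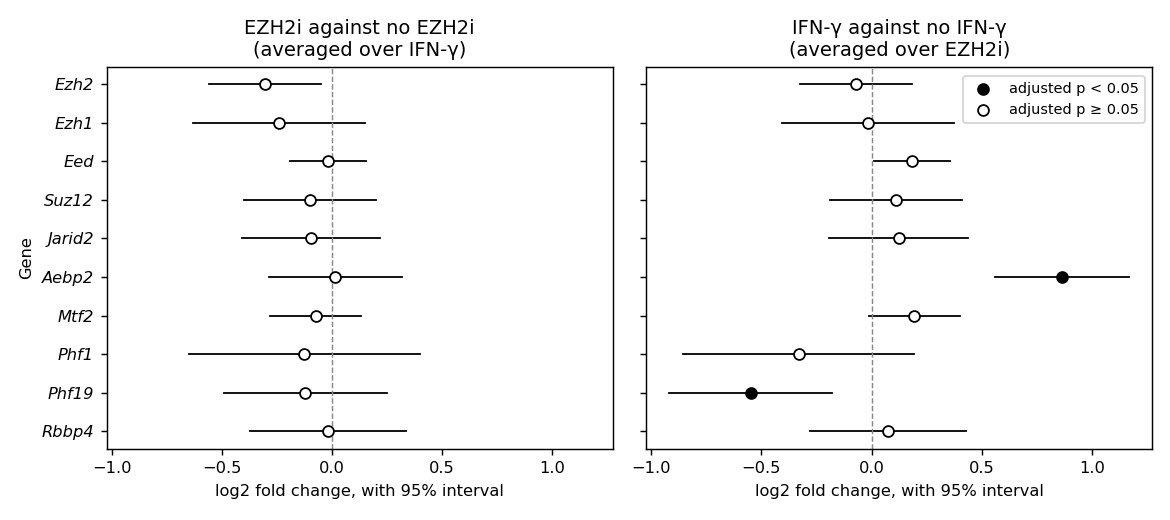
Fitted log2 fold change (horizontal axis) of each member with EZH2i averaged over IFN-γ (left) and with IFN-γ averaged over EZH2i (right), with 95% intervals from edgeR over 12 libraries. Filled points have an adjusted p under 0.05, which only Aebp2 at 0.87 and Phf19 at -0.55 reached, both with IFN-γ.

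With IFN-γ the picture differed for the accessory subunits. Aebp2 rose, Phf19 was lower in the averaged comparison, and the catalytic and core genes were not called. In IFNg against Ctr 1 of 10 members was called, beside 8.75% of all genes, and in IFNg_EZH2i against EZH2i also 1, beside 8.07% of genes. It was Aebp2 both times. Averaged over the inhibitor, 2 members were called, beside 16.1% of genes, with Aebp2 higher (10.0% of genes were called higher) and Phf19 lower (6.03% of genes were called lower). Counts of members this small lie near those shares, so the members as a group did not stand apart from the rest of the genes.

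Aebp2 encodes a zinc finger protein that binds DNA and stabilises PRC2 beside JARID2. Its levels were 51.6, 44.2 and 46.0 CPM in Ctr and 100.1, 70.2 and 62.8 CPM in IFNg. In the inhibited cells they were 45.5, 40.3 and 43.3 CPM in EZH2i and 110.1, 83.6 and 67.3 CPM in IFNg_EZH2i. All 6 libraries with IFN-γ lay above all 6 without it, as 7.10% of genes did. Of the 7 OPC markers, 3 (Pdgfra, Cspg4 and Olig1) were called lower with IFN-γ averaged over the inhibitor. Among the 6 neuron markers, 2 (Syt1 and Stmn2) were called higher, as was 1 of 3 tested pericyte and fibroblast markers (Lum). The part of these markers in the Aebp2 result was not tested.

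The averaged log2 fold change of Aebp2 was 0.87 (SE 0.14, 95% interval 0.56 to 1.17; a 1.82-fold rise; edgeR, Benjamini-Hochberg adjusted p = 8.77e-04, and 0.00491 or less under all 19 alternatives, with values of 0.75 to 0.93). In inhibited cells alone it was 1.01 (SE 0.20, edgeR adjusted p = 0.00618), a 2.02-fold rise. In resting cells it was 0.72 (SE 0.20, edgeR adjusted p = 0.0424), a call that was lost under 12 of 20 alternatives, with adjusted p up to 0.181. The value fell to 0.49 without IFNg replicate 1, the library at 100.1 CPM (edgeR adjusted p = 0.157). The difference between the resting and inhibited cells in the IFN-γ response of Aebp2 was 0.30 on the log2 scale (95% interval -0.31 to 0.90) and was not called by the interaction test (edgeR adjusted p = 1.00).

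Per length, Aebp2 went from 12.1 ± 1.71 TPM in Ctr to 23.4 ± 5.52 in IFNg, and from 13.9 ± 0.731 in EZH2i to 25.3 ± 7.92 in IFNg_EZH2i (SD, n = 3). Its group mean held rank 5 among the members in Ctr, rank 4 in both EZH2i and IFNg, and rank 3 in IFNg_EZH2i. The gene lies on the plus strand of chromosome 6, from 140622663 to 140678472 (GRCm38), overlaps no other annotated gene, and 97.4% to 98.6% of its counts came from protein-coding transcripts.

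The higher level was spread over transcripts with separate start sites. Aebp2-202, Aebp2-201 and Aebp2-205, which start at 140623499, 140622663 and 140624909, held median shares of 36.9%, 36.2% and 19.4% of the gene's counts over the 12 libraries. In TPM, Aebp2-201 went from 1.93 ± 0.396 in Ctr to 3.57 ± 0.614 in IFNg, Aebp2-202 from 3.49 ± 0.616 to 6.63 ± 2.01 and Aebp2-205 from 4.69 ± 0.484 to 9.20 ± 3.15. Aebp2-208, which starts further in at 140637752, went from 1.16 ± 0.344 to 2.24 ± 0.296. Salmon splits reads among transcripts that share exons, so the division between them is an estimate without an error here.

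**Figure D3:**
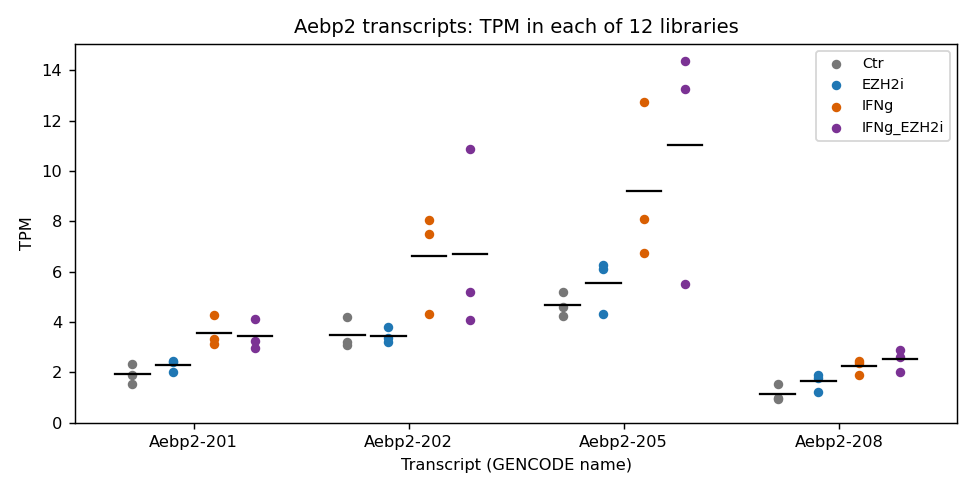
Level in TPM of the 4 Aebp2 transcripts with the largest shares of counts, by transcript, with 1 point per library, colour for the group and a black bar for the mean of 3 libraries. For each of the 4 transcripts the means of IFNg and IFNg_EZH2i lie above those of Ctr and EZH2i.

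Because Aebp2 was the member that answered IFN-γ, the RefSeq windows of the members were read for the sites through which interferons are known to act. These windows run from 250 bases before to 50 after a start (GRCm38.p6), and the start of Aebp2-202 has none of its own. The gamma-activated site was searched as TTCNNNGAA, which is its own reverse complement, and the interferon-stimulated response element, bound by IRF proteins, by its core GAAANNGAA and the reverse complement TTCNNTTTC. All 10 members had a window, 14 windows in all. Of these 0 held the first motif and 1, that of Eed, held the second, while 8.30% and 8.56% of all 32851 windows did. None of the 3 Aebp2 windows held either. A form longer by 1 base, with the core followed by A, was searched first and stood in 0 member windows and 3.44% of all, and the shorter core was taken after that count was known. The window of Irf1, the gene used above as a check of the IFN-γ treatment, held the first motif 90 bases before the start. The Aebp2 windows at the starts of Aebp2-201 (chr6:140622413-140622712) and Aebp2-205 (chr6:140624659-140624958), both on the plus strand, are printed with the Irf1 site (chr11:53769899-53769957, plus strand) for contrast, with the match in capitals.
Aebp2 window 1: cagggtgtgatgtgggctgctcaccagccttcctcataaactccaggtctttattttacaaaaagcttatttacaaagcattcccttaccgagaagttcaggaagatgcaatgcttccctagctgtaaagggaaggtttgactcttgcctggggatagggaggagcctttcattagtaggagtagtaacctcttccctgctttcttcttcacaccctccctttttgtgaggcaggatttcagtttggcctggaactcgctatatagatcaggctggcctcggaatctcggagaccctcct
Aebp2 window 2: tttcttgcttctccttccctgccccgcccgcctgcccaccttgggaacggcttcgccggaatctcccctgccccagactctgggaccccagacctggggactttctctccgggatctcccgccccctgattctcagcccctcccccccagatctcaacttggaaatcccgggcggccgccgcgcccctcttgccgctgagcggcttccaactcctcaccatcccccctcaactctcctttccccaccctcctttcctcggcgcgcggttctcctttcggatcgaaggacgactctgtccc
Irf1 site: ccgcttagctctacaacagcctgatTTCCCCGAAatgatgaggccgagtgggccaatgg
The first Aebp2 window held 4 CpG pairs and 48.0% G and C, and the second 21 CpG pairs and 65.7% G and C. That the letters of both motifs are missing from 300 bases says nothing of sites elsewhere in the gene.

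Phf19 was the member with lower levels under IFN-γ. PHF19 is a Polycomb-like protein that reads H3K36 methylation. Its levels were 22.0, 27.7 and 36.1 CPM in Ctr and 14.0, 20.9 and 26.4 CPM in IFNg, with overlap. In inhibited cells they were 26.3, 26.4 and 29.7 CPM in EZH2i and 14.4, 18.7 and 20.9 CPM in IFNg_EZH2i, without overlap, as 9.66% of genes were in the same direction.

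The averaged log2 fold change of Phf19 was -0.55 (SE 0.17, 95% interval -0.92 to -0.18; edgeR, Benjamini-Hochberg adjusted p = 0.0459), a call lost under 11 of 19 alternatives, with adjusted p up to 0.116. The separate values were -0.49 in resting cells (edgeR adjusted p = 0.304) and -0.61 in inhibited cells (edgeR adjusted p = 0.185), neither called. With the replicate number as a block, both were called, at -0.50 (edgeR adjusted p = 0.0131, in a fit that called 21.2% of genes) and -0.63 (edgeR adjusted p = 0.00326, in a fit that called 19.3%). Same-numbered libraries deviated together in these comparisons, though only weakly in replicate 2 of Ctr and IFNg (Pearson's r = 0.105). In each of the 3 same-numbered pairs of both comparisons Phf19 was lower with IFN-γ, and here too the share of all genes was not counted.

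The 20 replication and mitosis genes were read beside Phf19. Of these, 18 had a lower fitted value with IFN-γ averaged over the inhibitor, with a median log2 fold change of -0.15 beside -0.0017 over all genes, and 1 passed the test, E2f1, a transcription factor of the G1 to S transition, at -0.45 (SE 0.11, edgeR adjusted p = 0.0121). Their part in the Phf19 result was not tested. E2F sites were searched in the same windows as TTTCCCGC, TTTGGCGC and TTTCGCGC on both strands, and 3 of the 14 member windows held one, those of Ezh2, Suz12 and Phf19, beside 1.84% of all windows. They are shown because Ezh2 is known as an E2F target, with the match in capitals and each on its gene's strand, Ezh2 at chr6:47594995-47595052 (minus), Suz12 at chr11:79992862-79992919 (plus) and Phf19 at chr2:34914152-34914209 (minus).
Ezh2 site: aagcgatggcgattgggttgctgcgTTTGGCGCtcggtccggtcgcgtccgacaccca
Suz12 site: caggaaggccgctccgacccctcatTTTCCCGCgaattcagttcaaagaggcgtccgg
Phf19 site: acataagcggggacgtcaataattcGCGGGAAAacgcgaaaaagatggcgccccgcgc
Relative to the annotated starts the match began 3 bases after that of Ezh2, 219 bases before that of Suz12 and 208 bases before that of Phf19. Of these 3 genes Phf19 alone was called with IFN-γ, and a test of the difference between them was not made. Whether E2F proteins act at these sites, or have a part in the Phf19 result, was not tested.

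**Figure D4:**
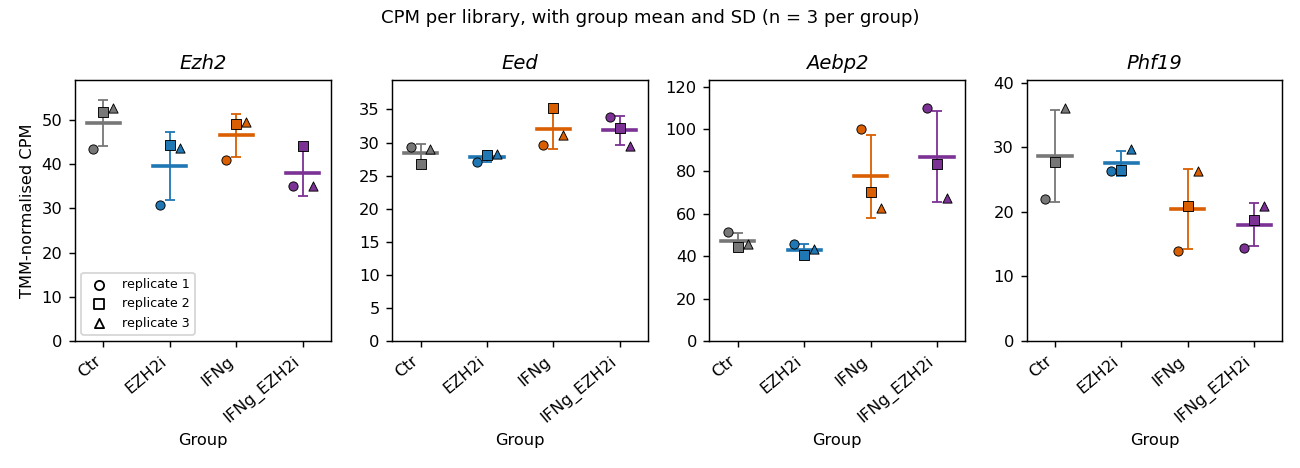
Normalised level in CPM (vertical axis from 0) of Ezh2, Eed, Aebp2 and Phf19 by group, with 1 symbol per library (shape gives the replicate number), a bar for the group mean and whiskers for the SD (n = 3). The IFN-γ libraries of Aebp2 lie between 62.8 and 110.1 CPM, above all libraries without IFN-γ, whereas those of Ezh2 overlap between the groups.

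Eed showed a small shift with IFN-γ that did not pass the test. It stood at 29.3, 26.8 and 29.0 CPM in Ctr and 29.6, 35.3 and 31.1 CPM in IFNg, and at 27.02, 28.1 and 28.3 CPM in EZH2i and 33.8, 32.2 and 29.4 CPM in IFNg_EZH2i. The 6 libraries with IFN-γ lay above the 6 without it, as 7.10% of genes did, but the lowest of the former (29.4 CPM) and the highest of the latter (29.3 CPM) were almost equal. The averaged log2 fold change was 0.18 (SE 0.08, 95% interval 0.01 to 0.36; edgeR adjusted p = 0.159, 0.0568 to 0.573 under the alternatives tried). In TPM, Eed stood at 22.5 ± 3.16 in Ctr and 26.2 ± 4.10 in IFNg (SD, n = 3). In inhibited cells its TPM showed no such shift, at 26.3 ± 2.51 in EZH2i and 26.4 ± 4.49 in IFNg_EZH2i.

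The remaining core and accessory genes were not called with IFN-γ. Averaged over the inhibitor, the log2 fold changes were -0.07 for Ezh2 (95% interval -0.32 to 0.18), -0.02 for Ezh1 (-0.41 to 0.37), 0.11 for Suz12 (-0.19 to 0.41) and 0.12 for Jarid2 (-0.19 to 0.44). They were 0.19 for Mtf2 (-0.01 to 0.40), -0.33 for Phf1 (-0.85 to 0.19) and 0.07 for Rbbp4 (-0.28 to 0.43). Protein-coding transcripts held 19.7% to 67.8% of the counts of Mtf2. When those transcripts alone were counted, the averaged value was -0.01 for Mtf2 and -0.55 for Phf1. Mtf2, Phf1 and Rbbp4 each overlap a protein-coding gene on the other strand (Tmed5, Cuta and Sync), and reads of such partners can be told apart only if strand was used in counting, which the sources used here do not give.

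The balance between the accessory classes can be put as the summed TPM of the Polycomb-like genes over that of Jarid2 and Aebp2. It was 0.821, 0.968 and 1.197 in Ctr and 0.843, 0.960 and 1.01 in EZH2i. With IFN-γ it was 0.3998, 0.740 and 0.885 in IFNg and 0.4005, 0.635 and 0.783 in IFNg_EZH2i. The lowest libraries without IFN-γ overlapped the highest with it in resting cells, and the inhibited groups did not overlap. Aebp2 and Phf19 both enter this ratio, so it restates their shifts. All annotated transcripts are summed in it, including those of Mtf2 that are not protein-coding.

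Within the Polycomb-like genes, Mtf2 made up 59.8% ± 4.20 of the summed TPM in Ctr, 56.7% ± 3.10 in EZH2i, 69.8% ± 2.13 in IFNg and 68.6% ± 4.47 in IFNg_EZH2i (SD, n = 3). Phf19 made up 29.8% ± 4.07, 34.0% ± 2.26, 22.4% ± 4.17 and 23.2% ± 0.255 in the same order. Mtf2 was the largest of the 3 in every library, at 53.3% to 71.5%. These shares sum all annotated transcripts, and protein-coding ones held 19.7% to 67.8% of Mtf2 counts. The main protein-coding transcripts, Mtf2-201 and Phf19-201, stood at 3.01 ± 0.426 and 4.25 ± 2.18 TPM in Ctr. In IFNg_EZH2i they stood at 2.72 ± 0.890 and 2.47 ± 0.771 TPM, so Mtf2-201 was not the larger beyond spread in either group.

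Replicate number left its own trace on the members. Rbbp4 was at 146.0 to 152 CPM in the libraries numbered 1 and at 161 to 235 CPM in all the others. Jarid2 was highest in the libraries numbered 1 in every group, at 75.4, 79.2, 100.4 and 73.5 CPM in Ctr, EZH2i, IFNg and IFNg_EZH2i. Over the 12 libraries, after the group means were taken out, Rbbp4 went with Suz12 (Pearson's r = 0.82) and Ezh2 (r = 0.79), and Jarid2 with Ezh1 (r = 0.88) and against Phf19 (r = -0.86). These are descriptions over libraries that also differ in depth, since the libraries numbered 3 were the deepest of their groups.

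Among the 14680 genes with a mean of at least 1 CPM, the closest to Ezh2 over the 12 libraries were Fancc (Pearson's r = 0.93), Tatdn2 (r = 0.92), Nup160 (r = 0.92), Dck (r = 0.91) and Mtrex (r = 0.91). Close to Ezh1 were Scaf8 (r = 0.96), Rubcn (r = 0.96), Vps33a (r = 0.96) and Zfp598 (r = 0.94). All these genes were picked from the top of 14680 correlations over only 12 libraries, with group and replicate differences left in. Whether they share regulation with Ezh2 or Ezh1 was not tested.

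The genes that work with or against PRC2 on the same histone tail were likewise not called with the inhibitor. None of the 5 tested genes of other PRC2-associated proteins, such as Rbbp7 and Ogt, was called in any comparison. Kdm6a and Kdm6b encode the demethylases that remove the PRC2 mark, and 0 of these 2 were called with the inhibitor. Ep300 and Crebbp, the acetyltransferases for the same lysine, had log2 fold changes of -0.34 and -0.36 averaged over IFN-γ (edgeR adjusted p = 0.327 and 0.541). Nor was any of the 5 H3K36 methyltransferases or 11 subunits of the H3K4 methyltransferase complexes called in any comparison, although 10 of these 11 had a fitted value below 0 with the inhibitor (median -0.16, all genes -7e-04).

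Over these 5 lists and those of the PR-DUB (deubiquitinase) complex and the partners of RBBP4, 4 of 42 tested genes were called higher with IFN-γ averaged over the inhibitor, close to the 10.0% of all genes. Kdm6a stood at 50.8 ± 4.96 CPM in Ctr and 68.9 ± 8.96 in IFNg (SD, n = 3), with an averaged log2 fold change of 0.45 (SE 0.10, edgeR adjusted p = 0.00636). Its separate values, 0.44 in resting and 0.45 in inhibited cells, were not called (edgeR adjusted p = 0.073 and 0.066). Asxl3, one of 4 genes listed for the deubiquitinase complex that opposes PRC1, stood at 9.35 ± 1.66 CPM in Ctr and 22.1 ± 5.87 in IFNg, with an averaged value of 1.23 (SE 0.16, edgeR adjusted p = 1.46e-04), and its relative Asxl1 at 0.33 (SE 0.08, edgeR adjusted p = 0.0141). Asxl1 was called in resting cells, at 0.46 (edgeR adjusted p = 0.028), but not in inhibited cells, at 0.21 (edgeR adjusted p = 0.424).

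Mbd2, a methyl-CpG binding subunit of NuRD, was the 1 of 13 listed partners of RBBP4 to be called, at 28.9 ± 1.89 CPM in Ctr and 45.7 ± 5.53 in IFNg, with an averaged value of 0.70 (SE 0.10, edgeR adjusted p = 2.35e-04).

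No gene of the whole table was called by the interaction test between the inhibitor and IFN-γ (edgeR, 0% of 18995 genes, and 0.669% at an unadjusted p under 0.05; DESeq2 called 0). None of the 10 members had an unadjusted p under 0.05 in it. The widest interval was that of Phf1, at 0.19 (95% interval -0.86 to 1.24), and the narrowest that of Eed, at 0.02 (-0.32 to 0.37).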

How the data were processed

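Total RNA libraries of mouse OPC cultures were described by 12 Salmon tables, 1 per library. Per the labels and the study's methods, the authors quantified reads with Salmon 0.8.2 against GRCm38 (mm10), and STAR and DESeq2 are also named in the submitters' processing notes. The strand setting is not given in the sources used here. The deposited values are estimated counts and TPM (length-corrected relative abundance) for 141862 transcripts, all of which matched GENCODE vM21 (GRCm38), and both were summed per gene. The deposited tables of the authors' own comparisons hold fold changes and p-values and were not used.

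Estimated counts were rounded and tested with edgeR 4.0.16 (R 4.3.3) by the quasi-likelihood test with TMM scaling, filterByExpr, group as the only term, 1 fit of 12 libraries and Benjamini-Hochberg adjustment over the 18995 genes that passed, with calls at an adjusted p under 0.05. CPM (TMM-normalised counts) compare 1 gene between groups, and TPM compares genes. Intervals are 95%, and the SE is the log2 fold change over the root of the F statistic. Fits were tested on simulated data. Depth ran from 17403896 to 66546017 counts per library. The genes named are all 10 members and, from lists of PRC2-associated, H3K27 demethylase, H3K27 acetyltransferase, H3K36 methyltransferase, H3K4 methyltransferase, PR-DUB (deubiquitinase), RBBP4 partner, and replication and mitosis genes, those called (at most 4 per list and comparison) or the most abundant. Further lists held cell type markers and 4 treatment checks. The members and lists were chosen with earlier results of these data known. Some genes that these rules name are not reported here.

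Alternatives were DESeq2 1.42.0, DESeq2's scaling (RLE), no filter, at least 10 counts in every sample, a replicate block, length-scaled TPM, protein-coding transcripts only, only the 6 samples compared, and leaving out each library. Same-numbered libraries were taken as pairs where every correlation of their deviations from the group means was over 0.1. It was 0.105 to 0.652 for Ctr with IFNg, 0.605 to 0.686 for EZH2i with IFNg_EZH2i and 0.638 to 0.748 for IFNg with IFNg_EZH2i, which were taken as paired, and 0.0929 to 0.609 for Ctr with EZH2i, which were not. The values 0.105 and 0.0929 both came from replicate 2 and lie close on either side of the cut. Were cultures shared by number in all the accepted comparisons, Ctr and EZH2i would be paired as well.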

Additional observations from a re-analysis of the deposited data

How the results depend on the processing

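The fitted log2 fold changes of the 10 members gave 60 values in the 6 two-group and averaged comparisons, and of 1180 refits 1083 kept direction and side of the threshold, 71 changed sign, 23 lost a call and 3 gained one. Sign changes touched values that were not called. The call of Aebp2 in inhibited cells and averaged over the inhibitor was kept under all alternatives. Those of Aebp2 in IFNg against Ctr and of Phf19 averaged over the inhibitor were not, and the cause was not tested. Phf1 and Ezh1 had the fewest counts, with 153 to 351 and 180 to 608 per library. With EZH2i averaged over IFN-γ, the SE of Ezh1 (0.18) was close to that of Rbbp4 (0.16), which had 2858 to 14065 counts.

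For all genes in EZH2i against Ctr (77 called), DESeq2 called 331, no filter 121, at least 10 counts in every sample 29, length-scaled TPM 50, only the 6 samples 33, and leaving out a library 11 to 83. For IFNg_EZH2i against IFNg (67 called) the counts were 281 with DESeq2, 11 with at least 10 counts, 30 with length-scaled TPM, 7 with only the 6 samples and 10 to 65 without a library. For EZH2i averaged over IFN-γ (422 called) they were 876 with DESeq2, 238 with at least 10 counts, 280 with length-scaled TPM and 245 to 415 without a library.

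With the replicate block the counts of genes called were 771 for EZH2i against Ctr, 748 for IFNg_EZH2i against IFNg, 4032 for IFNg against Ctr, 3661 for IFNg_EZH2i against EZH2i, 2317 for EZH2i averaged and 6184 for IFN-γ averaged. The block called 2 members instead of 1 in IFNg against Ctr and in IFNg_EZH2i against EZH2i, Phf19 being the added one. Averaged over IFN-γ it called 1 member instead of 0, Ezh2 at -0.31 (edgeR adjusted p = 0.0131, in a fit that called 12.2% of genes). The Ctr and EZH2i libraries fell just short of the rule for pairs. It changed no other member's call.

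Members called in IFNg against Ctr were 0 with RLE, with protein-coding transcripts only and with only the 6 samples, and 0 to 1 without a library. Averaged over the inhibitor 1 was called instead of 2 with length-scaled TPM and with protein-coding transcripts only, and 1 to 2 without a library.

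Log2 fold changes that reversed were these. Rbbp4 in IFNg_EZH2i against EZH2i (0.0023) became -0.0041 with DESeq2 and with RLE, -0.0036 with the replicate block, -0.0047 with protein-coding transcripts only and -0.0031 with only the 6 samples. Length-scaled TPM gave 0.061 for Phf19 in EZH2i against Ctr, 0.14 for Eed in IFNg_EZH2i against IFNg, 0.037 for Eed and 0.0042 for Rbbp4 with EZH2i averaged, and 0.0097 for Ezh1 with IFN-γ averaged. Protein-coding transcripts only gave 0.093 for Mtf2 and 0.28 for Phf1 in IFNg_EZH2i against IFNg, -0.38 for Mtf2 in IFNg against Ctr, -0.0048 for Aebp2 with EZH2i averaged and -0.012 for Mtf2 with IFN-γ averaged.

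Leaving out a library, the ranges that crossed 0 were, for EZH2i against Ctr, Ezh1 -0.37 to 0.090, Suz12 -0.23 to 0.12, Phf1 -0.48 to 0.17, Phf19 -0.21 to 0.15 and Rbbp4 -0.079 to 0.28. For IFNg_EZH2i against IFNg they were Eed -0.062 to 0.066, Suz12 -0.18 to 0.048, Aebp2 -0.047 to 0.39, Mtf2 -0.13 to 0.067, Phf1 -0.39 to 0.18, Phf19 -0.39 to 0.046 and Rbbp4 -0.26 to 0.062. For IFNg against Ctr they were Ezh2 -0.17 to 0.0012, Ezh1 -0.11 to 0.30 and Suz12 -0.018 to 0.33. For IFNg_EZH2i against EZH2i they were Ezh2 -0.21 to 0.032, Ezh1 -0.30 to 0.12, Jarid2 -0.20 to 0.023 and Rbbp4 -0.15 to 0.14. With EZH2i averaged they were Eed -0.047 to 0.017, Suz12 -0.16 to 0.011, Jarid2 -0.19 to 0.0016, Aebp2 -0.091 to 0.13, Phf1 -0.30 to 0.069 and Rbbp4 -0.10 to 0.093. With IFN-γ averaged they were Ezh1 -0.12 to 0.11 and Rbbp4 -0.0005 to 0.19.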
